A study of Mus musculus with 1057 samples.

Results

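Merkel cells (MCs) were compared with keratinocytes sorted by the same GFP reporter, gene by gene across the whole table of TPM (transcript abundance scaled to 1000000 per cell). A cell entered if it was GFP-positive, carried the cell type label Merkel cell or keratinocyte, and came from 1 of 4 pools that held both labels in at least 5 cells. These pools were Sox2-GFP embryos at stage E18.5, Sox2-GFP mice at the day of birth (P0), Sox2-GFP mice at postnatal day 6 (P6) and Gfi1-GFP mice at P6. They held 391 of the 1057 cells of the series, 343 MCs and 48 keratinocytes. The Sox2-GFP E18.5 pool had 47 MCs and 12 keratinocytes, the Sox2-GFP P6 pool 7 and 12, the Gfi1-GFP P6 pool 60 and 6, and the Sox2-GFP P0 pool 18 keratinocytes and the remaining MCs, which were most of them. Every mouse was heterozygous for a GFP knock-in at Sox2 or at Gfi1 (Sox2 GFP/+ or Gfi1 GFP/+), so the MCs and keratinocytes of a pool shared that allele. The mice were on a Swiss Webster background, each pool combined littermates (several litters at Sox2-GFP P0), and skin was dissociated with trypsin at P6 and with dispase before trypsin at E18.5 and P0. Neither the labels nor the methods say how cell types were called, so the genes below may include those that made the call. Further groups served as reference levels: 14 GFP-negative keratinocytes from Sox2-GFP P0, 16 GFP-negative keratinocytes and the GFP-positive MCs from Gfi1-GFP P0, hematopoietic cells sorted by Gfi1-GFP at E16.5 and E17.5, and dermal papilla cells sorted by Sox2-GFP at E16.5, E18.5 and P6.

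MCs are touch receptor cells of the epidermis that arise from keratinocytes and contact sensory nerve endings. The bHLH factor ATOH1 drives their formation, and SOX2, ISL1, GFI1 and POU4F3 are further transcription factors of mature MCs. They replace the keratins of stratified epidermis with those of simple epithelia, carry the mechanically gated channel PIEZO2 and release transmitter and peptides from vesicles. Keratinocytes of the basal layer rest on hemidesmosomes, carry KRT5, KRT14 and KRT15, and depend on the factor p63, while Notch signalling moves them towards the suprabasal layers.

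For each gene, the mean of log2(TPM + 1) over the MCs of a pool was set against that over its keratinocytes, and the 4 pools were the replicates. Values below are on this scale, on which the change of low genes is understated. Of 49672 genes, 8392 passed a mean of 1 over the 8 pool means and were tested with limma. A gene near 0 on one side passes this filter only through its level on the other side, so counts and medians over the tested members of a gene list favour differences and are given as a description. After Benjamini-Hochberg adjustment at 0.05, 1337 genes (15.9% of those tested) differed, 374 (4.46%) higher and 963 (11.5%) lower in MCs. All 374 higher genes and 942 of the 963 lower genes had the same sign in 4 of 4 pools, whereas 40.3% of all genes tested did. The difference was over 3 in 33.2% of the higher genes and under -3 in 19.9% of the lower genes. Protein-coding genes made up 357 of the higher and 940 of the lower genes.

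**Figure D1:**
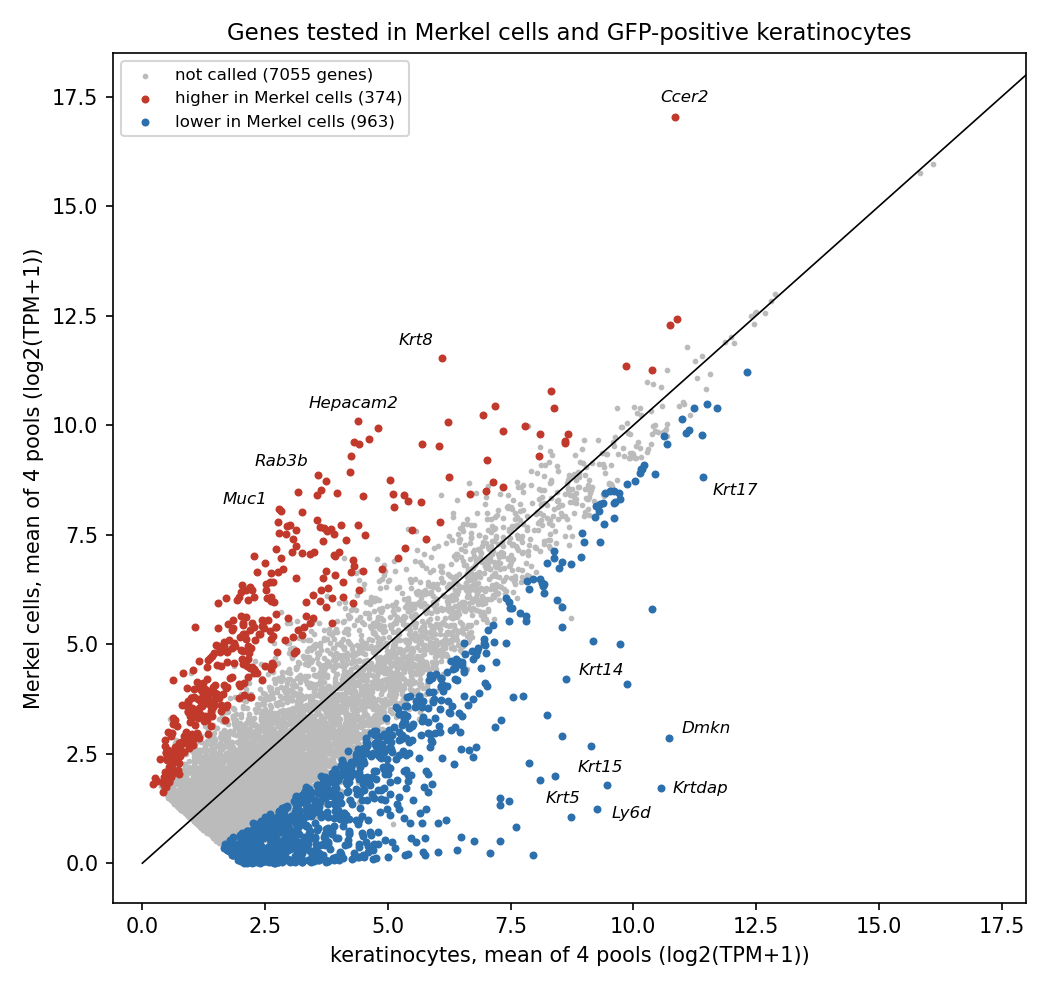
Each point is 1 of 8392 genes tested, with its mean log2(TPM+1) over 4 pools in keratinocytes on the x axis and in Merkel cells on the y axis. Coloured points are the 374 genes called higher and the 963 called lower in Merkel cells, grey points were not called, and some of the larger differences are named.

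The median gene was itself 0.43 lower in MCs, with medians of -0.64 at Sox2-GFP E18.5, -0.72 at Sox2-GFP P0, 0.12 at Sox2-GFP P6 and -0.33 at Gfi1-GFP P6. This direction turned with TPM averaged over cells before the logarithm, where the median difference was 0.30. With a pseudocount of 10 or 0.1 in place of 1 the median difference stayed below 0, at -0.09 and -0.84. With each pool centred on its median, 698 genes were higher and 550 lower, which moved the higher genes from 27.97% to 55.93% of the calls, so lower genes were the majority before centring and not after it. The calls rested on the filter on low values, since limma called 0 of 25619 genes without it (3563 at an unadjusted p under 0.05). They also rested on the Gfi1-GFP P6 pool, which held 6 keratinocytes: without it 53 genes passed, 50 of them lower. On the gene lists described below, members that passed without it were 1 MC factor, 5 basal, 3 junction and 2 suprabasal genes and 1 Notch pathway gene, and on every other list, simple keratins and vesicle machinery included, 0 passed. With TPM averaged over cells before the logarithm, 5 of 12 MC factors, 1 of 4 simple keratins and 12 of 30 vesicle genes passed. Without Sox2-GFP E18.5, 672 genes passed (430 lower), without Sox2-GFP P0 710 (485 lower), and without Sox2-GFP P6 2150 (1741 lower). Without pairing by pool, 753 passed (519 lower).

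At 1 TPM, fewer genes were detected in an MC than in a GFP-positive keratinocyte. The median number of genes above 1 TPM per cell was 5473 in MCs and 7159.5 in keratinocytes at Sox2-GFP E18.5, 4478 and 6131.5 at Sox2-GFP P0, 3969 and 4029.5 at Sox2-GFP P6, and 4362.5 and 6020 at Gfi1-GFP P6. The mean difference was -1264.5 ± 803 genes (SD, n = 4 pools), lower in 4 of 4 pools (exact two-sided sign-flip permutation test, with the smallest p that 4 pools allow). Above 10 TPM the mean difference was -733.5 ± 611 genes (SD, n = 4 pools, exact permutation test, p = 0.25), lower in 3 of 4 pools and 107.5 higher in the MCs of Sox2-GFP P6. GFP-negative keratinocytes had medians of 3869.5 genes above 1 TPM at Sox2-GFP P0 and 3980.5 at Gfi1-GFP P0. At Sox2-GFP P0, the pool with all 3 groups, GFP-positive keratinocytes had the most genes at limits of 0, 1 and 10 TPM. The order of the others turned on the limit, since above 0 TPM the medians were 6083 in MCs, 6408.5 in GFP-negative and 7769.5 in GFP-positive keratinocytes. TPM sums to the same total in each cell, the deposited values do not give the number of reads behind each cell, and the part of detection in the differences was not tested. The share of TPM on mitochondrial genes was 5.05% in MCs and 4.59% in keratinocytes at Sox2-GFP E18.5, 5.43% and 5.10% at Sox2-GFP P0, 3.74% and 2.67% at Sox2-GFP P6, but 4.13% and 8.72% at Gfi1-GFP P6 (medians over cells). The mean difference of -0.684 ± 2.63 percentage points (SD, n = 4 pools) was within the spread between pools (exact permutation test, p = 1), and it was 0.619 without Gfi1-GFP P6.

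**Figure D2:**
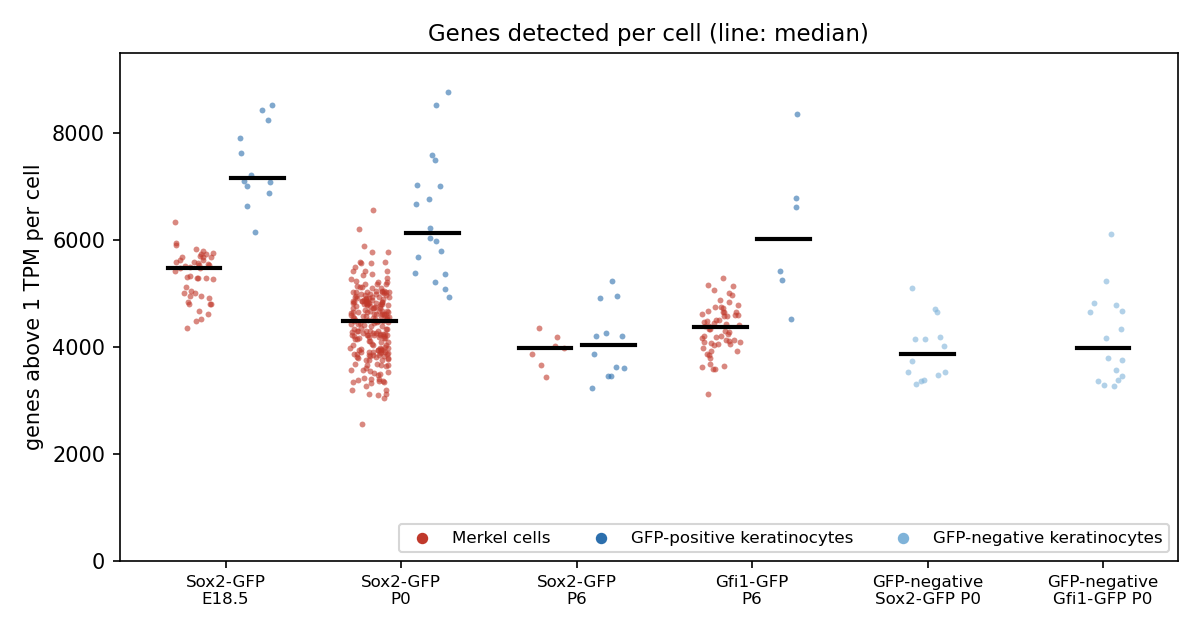
Number of genes above 1 TPM in each cell (y axis) by pool, with Merkel cells, GFP-positive keratinocytes and GFP-negative keratinocytes in separate columns and a line at each median. Merkel cell medians minus keratinocyte medians are -1686.5, -1653.5 and -1657.5 genes at Sox2-GFP E18.5, Sox2-GFP P0 and Gfi1-GFP P6 and -60.5 at Sox2-GFP P6.

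The reporter itself was measured as a transcript. EGFP stood at 8.27, 8.05, 8.17 and 3.18 in MCs and at 6.51, 6.13, 3.48 and 1.01 in GFP-positive keratinocytes (log2(TPM + 1), in the order Sox2-GFP E18.5, P0, P6 and Gfi1-GFP P6, which is kept below). The difference was 2.63 ± 0.58 (SE, limma adjusted p = 0.0184), and GFP-negative keratinocytes stood at 0.49 and 0.44 at Sox2-GFP P0 and Gfi1-GFP P0. Among GFP-positive keratinocytes EGFP was above the highest GFP-negative keratinocyte (1.42) in 12 of 12, 17 of 18, 7 of 12 and 2 of 6 cells, and it was at 0 in 5 of 12 at Sox2-GFP P6 and 4 of 6 at Gfi1-GFP P6. The mean of the latter pool thus came from 2 cells. MCs also had EGFP at 0 in 18 of 60 cells at Gfi1-GFP P6.

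The 12 largest rises were Ccer2 (6.18), Hepacam2 (5.71), Krt8 (5.43), Cck (5.31), Bex2 (5.31), Pcp4 (5.30), Rab3b (5.29), Muc1 (5.21), Pcdh9 (5.16), Selenom (5.13), Krt18 (5.07) and Aspa (5.04), each the mean difference over 4 pools. They include simple epithelial keratins (Krt8, Krt18), a peptide hormone (Cck), a GTPase of secretory vesicles (Rab3b), a cell surface mucin (Muc1), a protocadherin (Pcdh9) and aspartoacylase (Aspa), which cleaves N-acetylaspartate. Of the 12 largest falls, 11 are named here: Krtdap (-8.84), Ly6d (-8.03), Dmkn (-7.87), Krt15 (-7.69), Calm4 (-7.68), Fgfbp1 (-6.85), Sdc1 (-6.79), Anxa8 (-6.78), Sfn (-6.45), Krt5 (-6.43) and Urah (-6.25). Among these are basal keratins (Krt15, Krt5), products of differentiating epidermis (Krtdap, Dmkn), a carrier of fibroblast growth factors (Fgfbp1) and syndecan (Sdc1). Both sets kept their sign in 4 of 4 pools, as the rule that chose them required. Without Gfi1-GFP P6, 14 of these 24 genes still passed. The size of some falls depended on the keratinocytes used. Against GFP-negative keratinocytes of Sox2-GFP P0, Krtdap, Ly6d and Calm4 differed by -1.86, -1.91 and -0.30, but Krt15 and Krt5 by -6.35 and -7.27. Against those of Gfi1-GFP P0, Krtdap, Ly6d and Calm4 differed by -9.86, -8.23 and -6.37. The sample titles number 3 sets within a pool, and 9 pairs of pool and set held both labels. The labels were spread unevenly over them: 11 of 12 keratinocytes of Sox2-GFP E18.5 came from set P1, as did 8 of 12 of Sox2-GFP P6, where that set held 0 MCs. Taken within those pairs, all but 2 of the differences of the 24 genes had the sign of the mean. Sizes moved in both directions. Within set P1 of Sox2-GFP E18.5, Cck, Pcp4 and Aspa differed by 4.46, 4.64 and 4.55, beside 1.06, 2.04 and 2.15 in the whole pool. Krt8 differed by 2.38 within that set, beside 3.31.

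**Figure D3:**
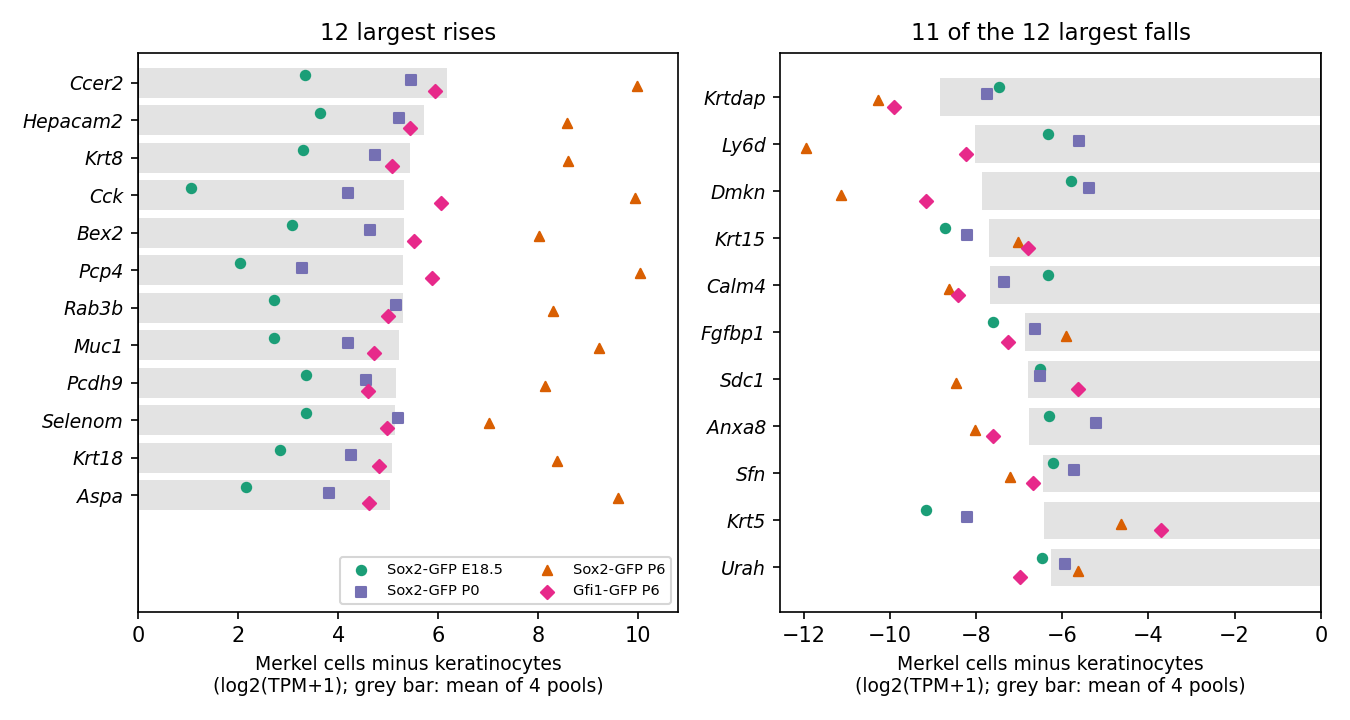
Difference between Merkel cells and GFP-positive keratinocytes in log2(TPM+1) (x axis) for the 12 largest rises and 11 of the 12 largest falls, with 1 point per pool and a grey bar at the mean of 4 pools. Taken over all title sets of a pool, the differences of the rises run from 1.06 for Cck at Sox2-GFP E18.5 to 10.03 for Pcp4 at Sox2-GFP P6, and all points of the falls shown lie below 0.

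Ccer2, on chromosome 7 from 28756174 to 28758968 (plus strand, GRCm38.p6), was the most abundant of them by far. Its levels were 16.32, 16.46, 17.53 and 17.84 in MCs and 12.99, 11.004, 7.55 and 11.89 in keratinocytes, so every MC mean lay above every keratinocyte mean. The difference was 6.18 ± 0.78 (SE, limma adjusted p = 0.00305). This 1 gene took a median of 9.83%, 10.6%, 19.1% and 24.53% of an MC's TPM, against 1.76%, 0.272%, 0.0186% and 1.46% in keratinocytes. Since TPM is a share, the level of all other genes in an MC was measured within what Ccer2 left, and rescaling without Ccer2, AY036118, CT010467.1 and the mitochondrial genes gave 398 genes higher and 880 lower. Ccer2 was also present at 6.93 to 7.60 in GFP-negative keratinocytes, hematopoietic cells and dermal papilla cells, which makes 7.55 in the keratinocytes of Sox2-GFP P6 a level within that background. The source of this background was not tested. The other genes above 5% of TPM, AY036118 and CT010467.1, overlap on the minus strand of chromosome 17 within a ribosomal RNA locus. They differed by -0.13 (limma adjusted p = 0.353) and -0.07 (limma adjusted p = 0.482), and their reads may be split between them.

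The sequence before the start site of 3 of the named genes is shown because all of them hold an E-box of the kind bHLH factors such as ATOH1 bind. Each line gives the 250 bases before a RefSeq start, 5′ to 3′ on the gene's strand in GRCm38.p6, with the motif in capitals (CAGCTG for Ccer2 and Krt5, CAGATG for Cck). Ccer2 is chr7:28755924-28756173 on the plus strand, Cck is chr9:121495695-121495944 on the minus strand, and Krt5 is chr15:101712906-101713155 on the minus strand.
Ccer2: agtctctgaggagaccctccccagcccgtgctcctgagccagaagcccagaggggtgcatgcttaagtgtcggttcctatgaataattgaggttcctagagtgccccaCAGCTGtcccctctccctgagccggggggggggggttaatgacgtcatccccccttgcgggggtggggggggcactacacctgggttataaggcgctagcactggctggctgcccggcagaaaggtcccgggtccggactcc
Cck: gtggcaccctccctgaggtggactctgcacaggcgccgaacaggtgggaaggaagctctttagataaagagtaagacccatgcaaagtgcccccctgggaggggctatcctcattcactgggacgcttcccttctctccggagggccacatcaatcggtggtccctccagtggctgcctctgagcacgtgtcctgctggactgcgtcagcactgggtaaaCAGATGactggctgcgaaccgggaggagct
Krt5: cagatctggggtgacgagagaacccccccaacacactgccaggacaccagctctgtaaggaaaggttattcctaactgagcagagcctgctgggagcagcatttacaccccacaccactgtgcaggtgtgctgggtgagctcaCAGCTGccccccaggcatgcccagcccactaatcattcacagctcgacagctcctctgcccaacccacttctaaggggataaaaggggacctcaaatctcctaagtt
An E-box thus stood before genes that were higher in MCs (Ccer2, Cck) and before one that was lower (Krt5).

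Over promoters of 300 bases (250 before and 50 after the start), CAGCTG, which reads the same on both strands, was in 18.3% of the 27025 genes with a RefSeq promoter and in 17.3% of the 6393 tested genes with one. It was in 24.4% of the higher and 17.46% of the lower genes with a promoter. CAGATG on either strand was in 19.2% of all genes, 12.8% of tested genes, 18.7% of higher genes and 14.1% of lower genes. These shares describe letters in a window and were given no test. The RE1 motif of the neuronal repressor REST, searched on either strand, was in 4 of 27025 genes (0.0148%). Of these 4, Lhx3 and Osbp2 were tested and both were higher in MCs (Osbp2 was chosen after its values were seen, 2.44 ± 0.71 SE, limma adjusted p = 0.0447). The matches are shown with 6 bases on each side, on the strand of the gene, with the motif in capitals; that of Osbp2 is on the opposite strand. Lhx3 is chr2:26208270-26208298 and Osbp2 chr11:3774785-3774813, both genes being on the minus strand.
Lhx3: gcctccTTCAGCACCGCGGACAGcgccag
Osbp2: tggccgCTGTCCGCGGTGCTGAAgcggtg
These were the only 2 matches among the 6393 tested genes with a promoter, so the lower genes could hold none.

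Of the transcription factors of MCs, 11 of 12 tested were higher and none lower, beside 4.46% and 11.5% of all genes tested. Their median difference was 2.996, beside -0.43 over all genes tested. Atoh1 stood at 10.03, 9.17, 7.22 and 7.37 in MCs and at 6.70, 4.53, 1.27 and 3.39 in keratinocytes, a difference of 4.48 ± 0.52 (SE, limma adjusted p = 0.00189). The pool means of MCs and keratinocytes did not overlap, although that of Sox2-GFP E18.5 keratinocytes came within 1 unit of the MCs of both P6 pools. Single cells did overlap: keratinocytes reached 9.25 at Sox2-GFP E18.5 and 9.95 at P0, and MCs went down to 0.66 at P0 and to 1.07 and 0.31 in the P6 pools. Pou4f3, a POU-domain factor, was higher by 5.04 ± 0.78 and Isl1, a LIM-homeodomain factor, by 4.71 ± 0.63 (SE, limma adjusted p = 0.00612 and 0.00379). The LIM-homeodomain factor Lhx3 was higher by 4.49, Hes6, a member of the Hes family, by 3.33, Gfi1, a zinc finger repressor, by 3.12 and Prox1, a homeodomain factor, by 2.87. Insm1 (2.52), Nhlh1 (2.20), Pou4f1 (1.98) and Myt1 (1.84), factors also used by neuronal or endocrine cells, completed the 11. Sox2 did not pass: its levels were 2.63, 2.33, 0.00 and 2.24 in MCs and 1.66, 1.17, 0.00 and 0.09 in keratinocytes, a difference of 1.07 ± 0.43 (SE, limma adjusted p = 0.117). Sox2 was at 0 in all cells of both labels at Sox2-GFP P6, a pool sorted by a reporter at that gene. Neurod1, Barhl1, St18 and Scrt1 were below the filter. Under the setting without Gfi1-GFP P6, 1 of the 12 factors passed, with a median difference of 2.87.

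Simple epithelial keratins were higher in all 4 members tested, beside 4.46% of all genes tested, with a median of 4.23. Without Gfi1-GFP P6, 0 of 4 passed, although the median was again 4.23. Krt8 stood at 11.72, 12.14, 11.64 and 10.64 in MCs and at 8.41, 7.40, 3.06 and 5.57 in keratinocytes, a difference of 5.43 ± 0.69 (SE, limma adjusted p = 0.00305). Krt18, whose product pairs with KRT8 in filaments, stood at 9.85, 10.19, 9.95 and 8.73 against 7.02, 5.93, 1.59 and 3.91. In keratinocytes both were highest at Sox2-GFP E18.5 and lowest at Sox2-GFP P6, where the difference from MCs was widest (8.59 and 8.37). Krt20, the keratin most used to mark MCs, was higher by 3.39 ± 0.58 and Krt7 by 3.23 ± 0.53 (SE, limma adjusted p = 0.00790 and 0.00710). Krt19 was below the filter, at 0.59 to 1.53 in MCs. Krt8 was at 2.48 to 3.43 and Krt18 at 1.09 to 2.03 in GFP-negative keratinocytes, hematopoietic cells and dermal papilla cells, levels that the keratinocytes of Sox2-GFP P6 matched.

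MC transcripts and keratinocyte transcripts were found in the same keratinocytes. At limits set after the values were seen, Atoh1 and Krt8 were both above 20 TPM in 9 of 12 keratinocytes at Sox2-GFP E18.5, 9 of 18 at Sox2-GFP P0, 0 of 12 at Sox2-GFP P6 and 3 of 6 at Gfi1-GFP P6. Krt5 was above 100 TPM in 9, 8, 0 and 0 of those cells. None of the 14 and 16 GFP-negative keratinocytes had both MC transcripts at that level. All MCs but 0, 4, 1 and 5 had both, and Krt5 was above 100 TPM in 2, 16, 0 and 9 MCs. Krt14 was above 100 TPM in 8 of 47 MCs at Sox2-GFP E18.5, 3 of 7 at Sox2-GFP P6 and 10 of 60 at Gfi1-GFP P6, but in 54.1% at Sox2-GFP P0 (exact 95% interval for counting error 47.5% to 60.7%). That interval takes cells as independent and leaves out the spread between mice and litters. No doublet caller was run on these sorted single cells, and whether some wells held more than 1 cell was not tested.

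**Figure D4:**
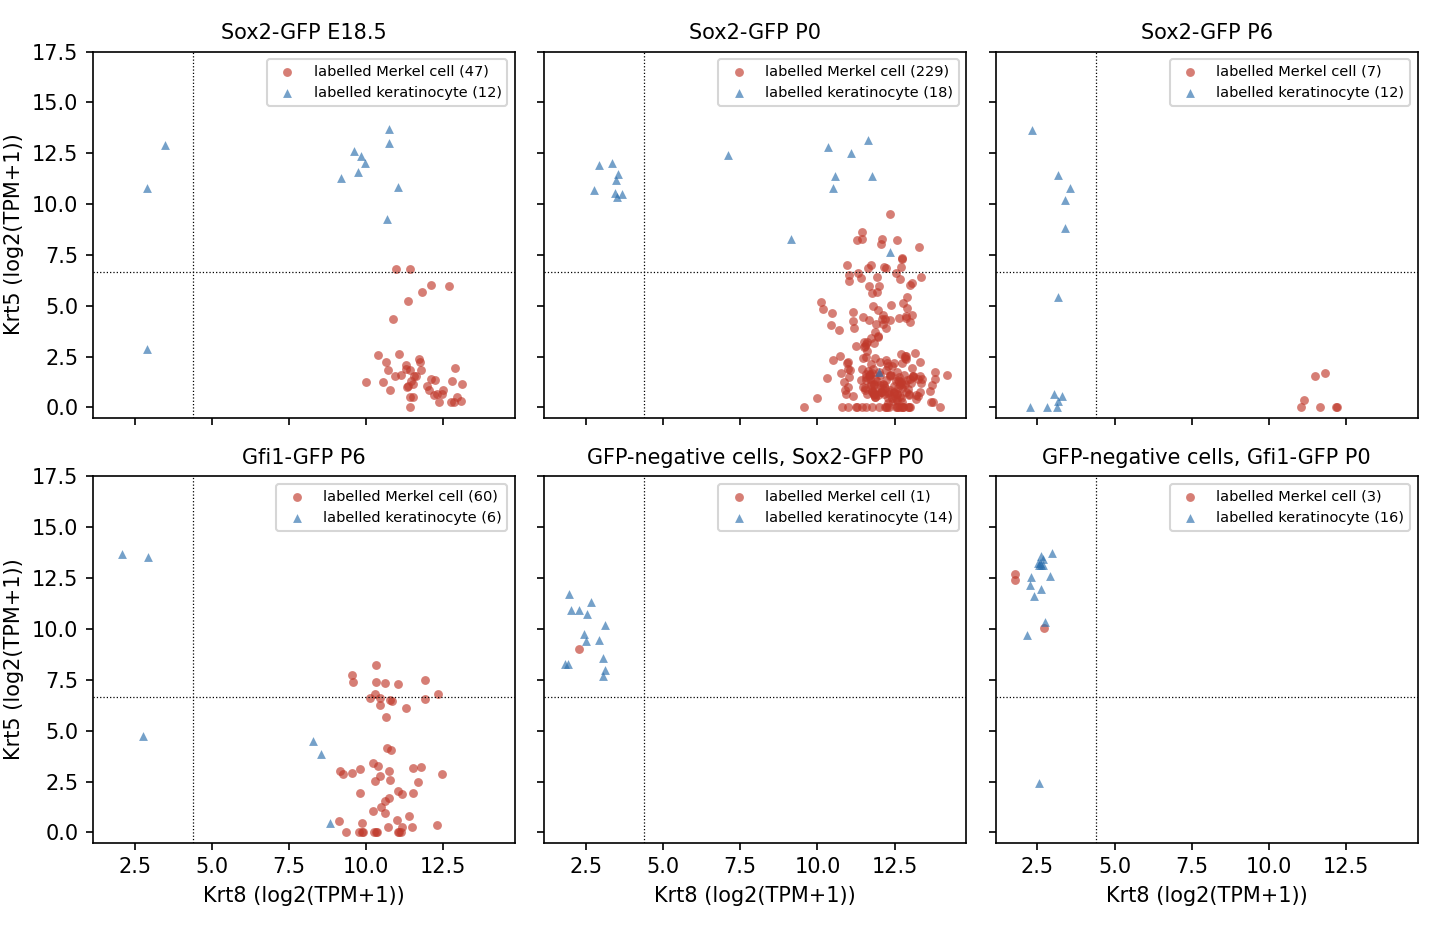
Krt8 (x axis) against Krt5 (y axis) in each Merkel cell and keratinocyte, both in log2(TPM+1), in a panel for each pool and for GFP-negative keratinocytes, with dotted lines at 20 TPM of Krt8 and 100 TPM of Krt5. At Sox2-GFP E18.5 and P0 many GFP-positive keratinocytes lie above both lines, and at Sox2-GFP P6 none of the 12 has Atoh1 and Krt8 above 20 TPM.

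Of 24 channels of touch and excitability, 5 passed the filter, too few to describe the list by its calls. Summed over all 24, their transcripts made up 321, 284.1, 322 and 266.4 TPM in MCs and 88.2, 105.6, 12.1 and 78.02 TPM in keratinocytes. Piezo2, the mechanically gated channel of MCs, stood at 5.63, 4.76, 4.50 and 4.75 in MCs and at 2.84, 2.52, 0.21 and 1.74 in keratinocytes, a difference of 3.08 ± 0.53 (SE, limma adjusted p = 0.00812). The calcium channel subunit Cacna2d1 (2.55) and the potassium channels Kcnh2 (1.69) and Kcnma1 (1.65) were higher, and the subunit Cacnb3 differed by 1.24 (limma adjusted p = 0.198). Kcnh2, Kcnma1 and Cacna2d1 were at 0.22, 0.80 and 0.91 in keratinocytes of Sox2-GFP P0, so they passed the filter through their level in MCs. Without Gfi1-GFP P6 none of the 5 was called, while their median difference was 1.80, beside 1.69 with all pools.

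Vesicle machinery was higher in 23 of 30 members tested and lower in none, beside 4.46% and 11.5% of all genes tested. The median was 3.16. Without Gfi1-GFP P6, 0 of the 30 passed, with a median of 2.96. Rab3b stood at 8.19, 8.83, 9.596 and 8.87 in MCs and at 5.48, 3.67, 1.29 and 3.87 in keratinocytes (5.29 ± 0.76 SE, limma adjusted p = 0.00443). Chga, the chromogranin of dense-core granules, differed by 4.78, Syt13, a synaptotagmin, by 4.75, and Syn2, a synapsin, by 4.72. Summed over the 50 listed genes, vesicle transcripts made up 4839, 5378, 7774 and 5247 TPM in MCs and 1445, 1045, 1294 and 699 TPM in keratinocytes, pool means that did not overlap.

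Peptide and monoamine genes were higher in 3 of 6 members tested of 20 listed, beside 4.46% of all genes tested. Cck, which encodes cholecystokinin, stood at 4.78, 9.56, 12.28 and 11.86 in MCs and at 3.72, 5.37, 2.34 and 5.81 in keratinocytes, a difference of 5.31 ± 1.10 (SE, limma adjusted p = 0.0147). Its difference ran from 1.06 at Sox2-GFP E18.5 to 9.94 at Sox2-GFP P6 (SD 3.71), 1 of the 3 widest spreads among called genes, and the MC mean at E18.5 was within the range of the keratinocyte means. The low end turned on the title sets: at E18.5 the difference was 4.46 within set P1, which held 11 of the 12 keratinocytes. In set P2, with 1 keratinocyte, it was -0.31. Penk, the proenkephalin gene, was at 9.97, 10.13, 10.57 and 9.64 in MCs and at 8.77, 5.98, 5.01 and 5.18 in keratinocytes (3.84 ± 0.61 SE, limma adjusted p = 0.00654). In MCs Penk was thus near the same level in each pool while Cck was not. Th, which encodes tyrosine hydroxylase, was higher by 2.55. Calcb, a calcitonin gene-related peptide gene, was at 0.88, 2.85, 8.15 and 5.49 in MCs and at 0.43, 1.34, 0.25 and 1.96 in keratinocytes and did not pass (3.35 ± 1.02 SE, limma adjusted p = 0.0533).

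Of 26 neurotrophic and axon guidance genes listed, 3 of 9 tested were higher, beside 4.46% of all genes tested. Ntf3, the neurotrophin-3 gene, stood at 6.97, 7.42, 8.97 and 8.03 in MCs and at 4.96, 3.84, 0.67 and 4.76 in keratinocytes (4.28 ± 0.88 SE, limma adjusted p = 0.0143). The guidance cue Sema3e (2.58) and the adhesion molecule Ncam1 (2.499) were the others. Neuronal cytoskeletal genes were higher in 4 of 7 members tested of 16 listed: Mapt (3.63), which encodes tau, the intermediate filament gene Ina (2.87), the ubiquitin hydrolase gene Uchl1 (2.07) and Map1b (2.05), which encodes a microtubule-associated protein.

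**Figure D5:**
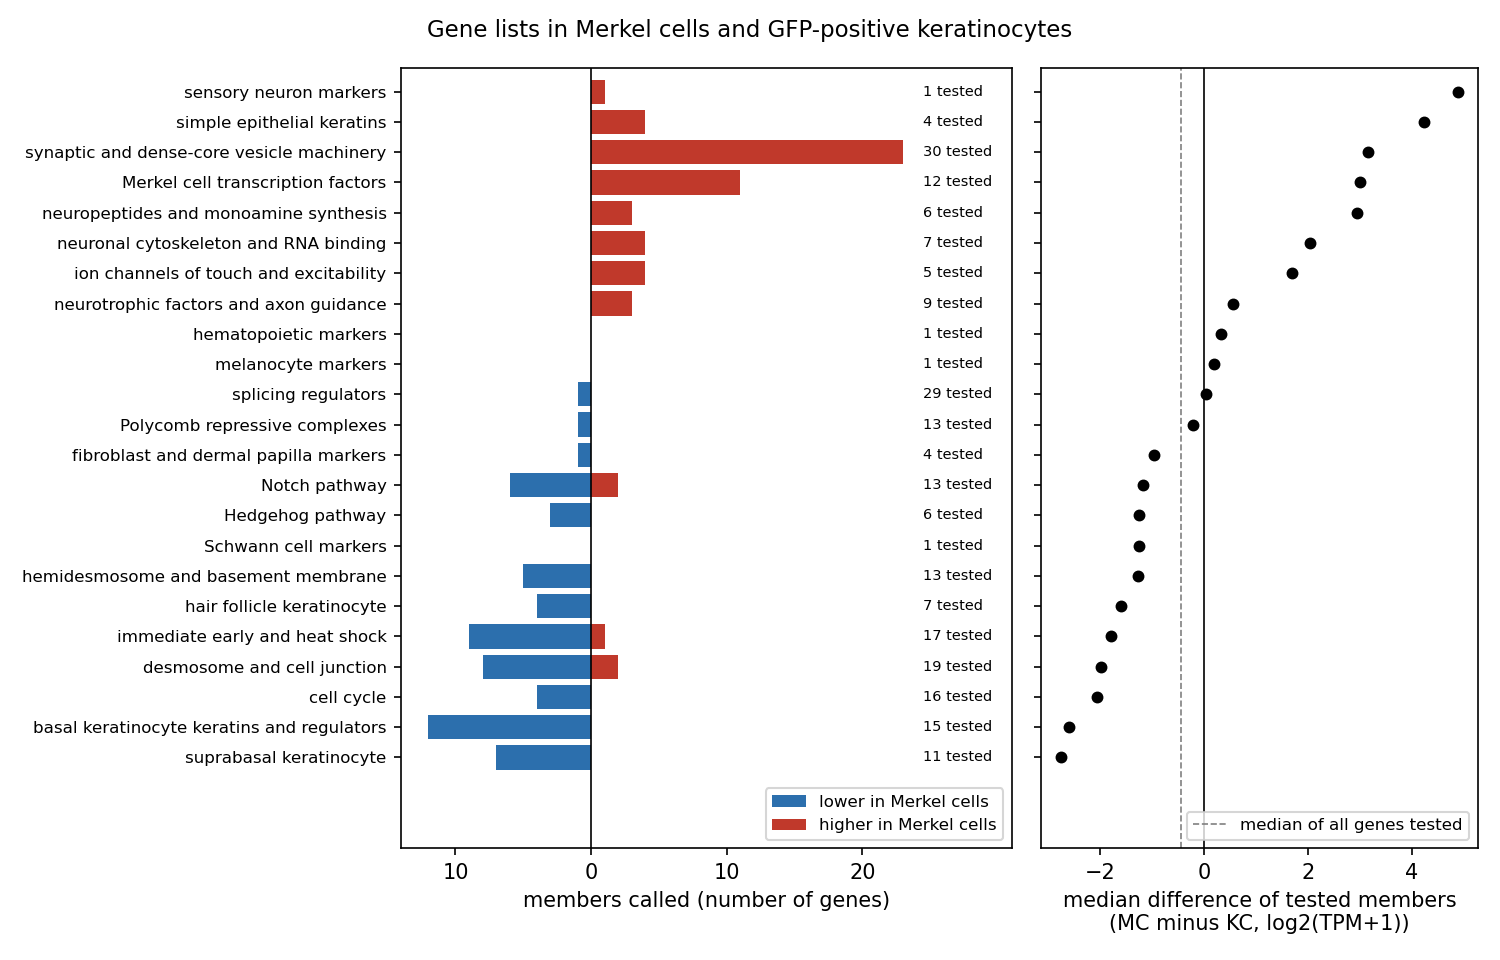
For each gene list with a tested member (endothelial markers had none), the left panel gives the number of members called lower (to the left) and higher (to the right) in Merkel cells, and the right panel the median difference of its tested members in log2(TPM+1), with a dashed line at the median of all genes tested (-0.43). Merkel cell factors, simple keratins and vesicle genes lie to the right of 0, and basal and suprabasal keratinocyte genes to the left of the dashed line.

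Keratins and regulators of the basal layer were lower in 12 of 15 members tested and higher in none, beside 11.5% and 4.46% of all genes tested. The median was -2.60. Krt15 stood at 2.09, 1.59, 1.06 and 2.38 in MCs and at 10.82, 9.80, 8.09 and 9.18 in keratinocytes, a difference of -7.69 ± 0.51 (SE, limma adjusted p = 0.000181). Krt5 stood at 1.94, 2.39, 0.51 and 3.08 in MCs and at 11.10, 10.60, 5.15 and 6.79 in keratinocytes (-6.43 ± 0.86 SE, limma adjusted p = 0.00379). Krt14, whose product pairs with KRT5, stood at 3.23, 5.61, 4.58 and 3.38 against 10.66, 11.48, 5.66 and 6.75 (-4.44 ± 0.88 SE, limma adjusted p = 0.0124). For Krt15 and Krt5 the MC and keratinocyte means did not overlap, and the P6 keratinocytes held less Krt5 and Krt14 than those of E18.5 and P0. Trp63, which encodes p63, was lower by -5.09 ± 0.55 and was at 0.71 or less in each MC mean. Sfn, which encodes stratifin, differed by -6.45, the factor Klf5 by -4.14, and Grhl2 by -2.68. Krt17, a keratin of hair follicle and activated epidermis, was abundant on both sides, at 7.96, 10.13, 9.43 and 7.71 in MCs and 9.04, 11.71, 14.06 and 10.83 in keratinocytes (-2.60 ± 0.50 SE, limma adjusted p = 0.0116). The factors Tfap2c (-2.57), Grhl3 (-2.45) and Ovol1 (-2.12) were also lower. Krt6a differed by -2.35 (limma adjusted p = 0.0596), Klf4 by -1.33 (limma adjusted p = 0.134) and Tfap2a by 0.12 (limma adjusted p = 0.877), and Krt6b and Krt16 were below the filter. Without Gfi1-GFP P6, 5 of the 15 were called lower, with a median of -2.85.

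The called genes with the widest spread between pools were named for that spread, and in Krt79 and Psapl1 it came from the keratinocytes of Sox2-GFP P6. Krt79, a keratin of the upper hair follicle, was at 12.42 there and at 4.12, 3.56 and 4.62 in keratinocytes of Sox2-GFP E18.5, Sox2-GFP P0 and Gfi1-GFP P6, against 0.63 to 1.398 in MCs (-5.19 ± 1.26 SE, SD 4.203, limma adjusted p = 0.0251). Psapl1, a prosaposin-like gene, was at 9.63 there and at 2.61, 0.57 and 4.73 in the others (-4.24 ± 1.15 SE, SD 3.82, limma adjusted p = 0.0355). Cck followed in spread, and in neither Krt79 nor Psapl1 did the gap to the nearest pool, 0.802 and 0.541 of the range, pass Dixon's critical value for 4 samples. Sox9, a hair follicle factor, was at 2.45, 3.75, 6.34 and 1.81 in keratinocytes and at 0.12 or less in MCs (-3.51 ± 0.69 SE, limma adjusted p = 0.0124). Krt5 was above 100 TPM in 5 of the 12 keratinocytes of Sox2-GFP P6, whereas all 12 had at least 1 of Krt5, Krt14, Krt15 and Krtdap above that limit. The label keratinocyte thus covered cells with Krt5 and Krt14 means above 10 at E18.5 and P0, and at Sox2-GFP P6 cells with Krt17, Dmkn and Krt79 means above 12. Gata3 (-3.76) and Lrig1 (-1.59), which are also used in hair follicle lineages, made up the 4 lower members of 7 tested on the hair follicle list of 25. Over all genes tested, 11.5% were lower.

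Hemidesmosome and basement membrane genes were lower in 5 of 13 members tested (median -1.26), beside 11.5% of all genes tested. Col17a1, a hemidesmosomal collagen, stood at 0.10, 0.27, 0.02 and 0.33 in MCs and 4.92, 5.58, 0.81 and 3.38 in keratinocytes (-3.49 ± 0.71 SE, limma adjusted p = 0.0138). The integrin subunits Itga6 (-2.77) and Itgb4 (-2.15) and the plakin gene Dst (-1.98) were lower too. With differences taken within title sets, 2 of the 13 were lower. With the filter at a mean of 3 the median of this list turned to 0.75, since the low genes that fell were no longer tested.

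Junction genes were lower in 8 and higher in 2 of 19 members tested (median -1.98), beside 11.5% and 4.46% of all genes tested. Cldn1, a tight junction claudin, stood at 0.19, 0.24, 0.05 and 0.26 in MCs and 5.65, 2.37, 8.65 and 6.37 in keratinocytes (-5.58 ± 0.88 SE, limma adjusted p = 0.00647). The desmosomal cadherin Dsc3 (-5.45), the connexin Gja1 (-4.90) and Perp (-4.57), a desmosome component, followed. The 2 members that were higher, chosen after their values were seen, were Cdh3, which encodes P-cadherin (3.10 ± 0.90 SE, limma adjusted p = 0.0441), and Cldn7 (2.85 ± 0.66 SE, limma adjusted p = 0.0216). Cdh3 was at 6.63, 6.83, 7.54 and 7.44 in MCs and 5.04, 5.64, 0.28 and 5.10 in keratinocytes. GFP-negative keratinocytes of Sox2-GFP P0 were above the MCs of that pool in Cdh3, at 7.51, and those of Gfi1-GFP P0 were at 4.09 beside 5.95 in MCs. In the same cells 1 claudin was therefore lower and another higher.

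Suprabasal genes were lower in 7 of 11 members tested (median -2.74), beside 11.5% of all genes tested. Krtdap stood at 1.80, 1.95, 0.65 and 2.42 in MCs and at 9.27, 9.69, 10.92 and 12.34 in keratinocytes, the largest fall of all (-8.84 ± 0.58 SE, limma adjusted p = 0.000181). GFP-negative keratinocytes held Krtdap at 3.82 at Sox2-GFP P0 and at 11.29 at Gfi1-GFP P0. Dmkn, which encodes dermokine, was lower by -7.87, Sbsn, which encodes suprabasin, by -4.52 and the desmosomal cadherin Dsg1a by -3.82. Sbsn was at 2.40 and 1.67 in keratinocytes of E18.5 and P0 and at 9.92 and 8.63 in those of P6.

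Of the Notch pathway, 2 of 13 members tested were higher and 6 lower (median -1.18), beside 4.46% and 11.5% of all genes tested. The receptor gene Notch1 stood at 0.36, 0.35, 0.05 and 0.13 in MCs and at 4.29, 2.95, 1.85 and 2.56 in keratinocytes (-2.69 ± 0.46 SE, limma adjusted p = 0.00812). The target Hes1 was at 0.22 to 0.40 in MCs and at 4.13, 4.92, 3.93 and 0.66 in keratinocytes (-3.13 ± 0.67 SE, limma adjusted p = 0.0163), and the receptor-cleaving protease gene Adam10 differed by -2.07. Dll3, a ligand-like member that acts within the cell, went the other way, at 8.12, 6.87, 7.20 and 6.75 in MCs and 5.38, 3.78, 0.46 and 2.86 in keratinocytes (4.11 ± 0.67 SE, limma adjusted p = 0.00703). The other higher member, Mfng (1.88), which encodes a glycosyltransferase acting on Notch receptors, was chosen after its values were seen. With pools centred on their medians 4 were lower in place of 6, and with the filter at a mean of 3 the median of the list turned to 1.60.

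Hedgehog pathway genes were lower in 3 of 6 members tested (median -1.25), beside 11.5% of all genes tested. These were the co-receptor gene Gas1 (-2.73 ± 0.59 SE), the transducer Smo (-1.53 ± 0.40) and the inhibitor Sufu (-1.35 ± 0.37), with limma adjusted p of 0.0171, 0.0318 and 0.0374. With pools centred, 1 of them passed. Ptch1, receptor and target in 1, was at 1.08, 0.95, 1.02 and 0.77 in MCs and 2.58, 2.88, 0.64 and 1.41 in keratinocytes (limma adjusted p = 0.199). Among Polycomb genes 1 of 13 passed, and it was lower, where 11.5% of all genes tested were lower. It was the histone methyltransferase gene Ezh2, at 2.002, 1.55, 0.05 and 0.70 in MCs and 4.04, 5.26, 1.49 and 1.72 in keratinocytes (-2.05 ± 0.55 SE, limma adjusted p = 0.0330). The median of that list was -0.20 and turned to 0.19 with pools centred, to 0.44 on the log2 of the mean TPM and to 0.01 with a pseudocount of 10.

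Cell cycle genes were lower in 4 of 16 members tested (median -2.06), beside 11.5% of all genes tested. The count turned on the pools. Without Sox2-GFP P6, 14 were called lower and 1 higher, and without Gfi1-GFP P6 0 were called, with a median of -2.54. With pools weighted by cells 15 were called lower, and within title sets 2. Ccnd2, a D-type cyclin, stood at 0.44, 0.75, 0.85 and 0.80 in MCs and at 5.77, 6.06, 2.63 and 4.07 in keratinocytes (-3.92 ± 0.67 SE, limma adjusted p = 0.00790). The replication helicase genes Mcm6 (-2.89) and Mcm5 (-2.49) and the cyclin gene Ccnd1 (-2.32) also passed. Cdk1, the mitotic kinase, was at 0.00 to 0.24 in MCs and at 3.75 and 5.09 in keratinocytes of E18.5 and P0 but 0.02 and 0.21 in those of P6, and did not pass (limma adjusted p = 0.0877). The cyclin-dependent kinase inhibitor gene Cdkn1a was the most abundant of the list, at 8.69 to 9.08 in MCs and 7.13 to 10.15 in keratinocytes (0.66 ± 0.51 SE, limma adjusted p = 0.396).

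Splicing regulators had a median of 0.04, with 1 of 29 members tested lower, where 11.5% of all genes tested were lower. This was Esrp1, the epithelial splicing regulator, at 3.15, 2.26, 1.54 and 1.49 in MCs and 5.10, 4.68, 5.13 and 3.97 in keratinocytes (-2.61 ± 0.51 SE, limma adjusted p = 0.0121). The neuronal regulator Celf4 was at 2.27, 2.09, 2.13 and 1.14 in MCs and 1.299, 0.98, 0.38 and 0.10 in keratinocytes (1.22 ± 0.37 SE, limma adjusted p = 0.0525). The median of this list changed sign under 6 alternatives, between -0.08 and -0.41.

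Immediate early and heat shock genes can be induced by skin dissociation. Of 17 members tested, 9 were lower and 1 higher (median -1.78), beside 11.5% and 4.46% of all genes tested. With differences taken within title sets 4 were lower and 1 higher, and on the log2 of the mean TPM 3 and 1. The chaperone genes Hspb1 (-4.85), Hspa1a (-4.20), Hspa1b (-2.998) and Dnajb1 (-2.75) were lower. Hspa1a stood at 0.45, 0.61, 0.03 and 0.50 in MCs and at 4.71, 3.60, 5.60 and 4.49 in keratinocytes, where the reads of Hspa1a and its near copy Hspa1b cannot be told apart with certainty. Nr4a1, a nuclear receptor of the immediate early class chosen after its values were seen, was higher by 2.24 ± 0.66 (SE, limma adjusted p = 0.0459). Fos was the most abundant, at 7.39, 9.19, 11.96 and 9.45 in MCs and 7.80, 8.71, 7.30 and 8.57 in keratinocytes (limma adjusted p = 0.187). MCs and keratinocytes of a pool came from the same litter or group of litters, but no label names the animal or litter of a cell. The part of dissociation in these differences was not tested.

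Most markers of other cell types were below the filter. None of 7 endothelial markers, 1 of 10 melanocyte markers (Kit), 1 of 8 Schwann cell markers (Erbb3) and 1 of 14 hematopoietic markers (Fcer1g) passed the filter, and none of these 3 was called. Dct, Ptprc and Pdgfra, which define melanocytes, blood cells and dermal fibroblasts, were at or below 0.78 in each mean. Of 14 fibroblast and dermal papilla markers 4 were tested and 1 was lower, Postn, which encodes periostin, at 0.15 to 0.32 in MCs and 4.61, 3.74, 0.91 and 3.58 in keratinocytes (-2.997 ± 0.59 SE, limma adjusted p = 0.0125). Dcn, which encodes decorin, stood at 0.72, 0.40, 0.88 and 0.55 in MCs and at 4.68, 4.13, 0.996 and 0.27 in keratinocytes (limma adjusted p = 0.111), beside 6.34 and 5.11 in GFP-negative keratinocytes. The summed level of that list was 41.2, 46.2, 121.99 and 112.4 TPM in MCs and 567, 368, 73.8 and 491 TPM in keratinocytes. Its most abundant member Col1a2 was higher by 2.62 in MCs without passing (limma adjusted p = 0.0590). The part of fibroblast transcripts in the genes called lower was not tested. Avil, an actin regulator listed as a sensory neuron marker, was the 1 tested member of its list, at 7.45, 8.02, 9.47 and 9.12 in MCs and 5.13, 3.87, 0.89 and 4.64 in keratinocytes (4.88 ± 0.84 SE, limma adjusted p = 0.00812).

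Cells that did not enter the fit were set beside its calls. At Gfi1-GFP P0, MCs were compared with 16 GFP-negative keratinocytes, a single pool that allows no test. Of the 374 higher genes 373 (99.7%) were above 0 there, and of the 963 lower genes 827 (85.9%) were below 0, where 55.7% of all genes tested were above and 44.3% below. Krt8 differed in that pool between 12.32 and 2.57, Atoh1 between 9.56 and 0.75, and Krt15 between 1.46 and 11.52. At Sox2-GFP P0, whose MCs entered the fit, 373 higher genes (99.7%) were above 0 and 767 lower genes (79.6%) below 0. Over all genes tested, 59.5% were above and 40.5% below in that pool. The labels of all these cells may rest on the same genes, so the shares are a description and no independent support. At Sox2-GFP P0, GFP-positive keratinocytes could also be set against GFP-negative ones. Krt8 was at 7.40 in the former and 2.52 in the latter, Ccer2 at 11.004 and 6.99, Atoh1 at 4.53 and 0.71, Krt5 at 10.60 and 9.67, and Krt15 at 9.80 and 7.93. The median gene was 0.995 higher in the GFP-positive cells, so each of these except Krt5 was further apart than the median gene.

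The transcript table gave the makeup of each cell's TPM by annotated biotype. Retained intron transcripts, which keep an intron and are not annotated as coding, took 3.66%, 3.48%, 3.60% and 3.05% of TPM in MCs and 3.26%, 2.94%, 2.46% and 2.32% in keratinocytes. The difference was 0.701 ± 0.318 percentage points (SD, n = 4 pools), higher in 4 of 4 pools. The exact two-sided sign-flip permutation test again gave the smallest p that 4 pools allow, which is above 0.05. As a share of transcripts above 1 TPM the retained intron difference was 1.18 ± 0.480 points (SD, n = 4 pools). Without mitochondrial genes, Ccer2, AY036118 and CT010467.1 it was 1.71 ± 0.804 points (SD, n = 4 pools). GFP-negative keratinocytes had 4.25% and 4.50% at Sox2-GFP P0 and Gfi1-GFP P0, above the MCs of each pool. Without those genes they had 5.23% and 5.53%, within the 5.06%, 4.76%, 5.36% and 5.998% of MCs and above the 4.08%, 3.70%, 2.83% and 3.72% of GFP-positive keratinocytes. At Sox2-GFP P0, the pool that held all 3 groups, GFP-negative keratinocytes were above MCs and MCs above GFP-positive keratinocytes on both scalings and as a share of transcripts above 1 TPM (13.2%, 12.1% and 10.79%). At Sox2-GFP P6, where the median number of genes above 1 TPM differed by -60.5, the share differed by 1.13 points, and the part of detection in these differences was not tested. Protein-coding transcripts took 1.60 ± 4.29 points more of the TPM of MCs (SD, n = 4 pools, exact permutation test, p = 0.625), a difference within the spread between pools. It turned to -2.22 points as a share of transcripts above 1 TPM and to -3.62 points without mitochondrial genes, Ccer2, AY036118 and CT010467.1. By TPM, transcripts annotated for nonsense-mediated decay, lncRNA and processed pseudogenes differed by -0.041, -0.973 and -0.563 points, higher in 1, 2 and 1 of 4 pools. As a share of transcripts above 1 TPM these differences were 0.077, 0.155 and 0.317 points. Without the same genes they were 0.370, 0.709 and -0.349 points.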

How the data were processed

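Single GFP-positive cells of mouse skin were sorted into plates and sequenced with Smart-seq2. The authors deposited a gene table and a transcript table of TPM, made per the submitters' processing notes with bcl2fastq, Trimmomatic, STAR 2.5.2b and RSEM 1.3.0 on GRCm38.p6 (mm10). TPM is scaled to 1000000 per cell (sums of 999999.0 to 1000000.9), so it keeps no depth. A correction for index hopping is described, without saying whether the deposited values carry it. Symbols, coordinates and biotypes came from the GENCODE annotation (49327 of 49672 gene identifiers and 122295 of 123064 transcript identifiers matched), and promoters from RefSeq.

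From these values the mean of log2(TPM + 1) was taken per pool and label. The 8 means of each gene were fitted with pool and label as terms in limma 3.58.1 (R 4.3.3), with a variance trend, on genes with a mean of at least 1, and p-values were adjusted by Benjamini-Hochberg. Pools are litters or groups of litters and cells are not replicates, so p-values measure the spread between 4 pools of 2 reporters and 3 ages. MCs and keratinocytes of a pool come from the same litter or group of litters and were paired on that basis, since no label names the animal, litter or sort of a cell. The deviations of MCs and keratinocytes from their label means correlated at 0.343, 0.297, 0.124 and 0.333 within pools and at no more than 0.0942 with another pool. For single measures, the signs of the 4 pool differences were flipped in all ways (an exact two-sided permutation test with a smallest p of 0.125). On simulated data for this comparison (8392 genes), 76 of 100 changes of 4 and 24 of 100 changes of 2 on the log2 scale were recovered, and 2 unchanged genes were called. The simulation changed 200 genes, drew noise for each gene on its own and held no difference between labels shared by the genes of a pool. Recovery and false calls in the real data, where 15.9% of genes were called, may differ from these counts.

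Named were the 12 largest rises and falls among called genes of 1 sign in 4 pools, the members of the transcription factor, simple keratin and basal keratinocyte lists, up to 4 called members with the largest differences of other lists or any member where under 5 were called, the 3 called genes of widest spread, and genes over 5% of TPM; 2 genes that the rule names are not reported here, though the counts include them. The members and the 24 lists were chosen with earlier results of these data known. Alternatives were the pseudocount, the filter, averaging before the logarithm, the fit without the block, without the trend or with weights, Gfi1-GFP P0 as a further pool, leaving out each pool, set-wise differences, centring and rescaling. Using GFP-negative keratinocytes at P0 was added after the data were seen. Analyses used Python 3.11.15 with pandas 2.3.3, numpy 2.4.6 and matplotlib 3.10.9.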

Additional observations from a re-analysis of the deposited data

Results flagged for a closer look

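In 4 of 57 results tested, 1 pool lay far from the other 3, and chance alone places about 1 in 20 groups there. The difference of Grhl3 was -4.771 at Sox2-GFP P6 and -1.75, -1.57 and -1.70 at Sox2-GFP E18.5, Sox2-GFP P0 and Gfi1-GFP P6. The difference of Tfap2c was -4.482 at Sox2-GFP E18.5 and -1.77, -1.97 and -2.04 in the other pools. The difference in genes above 1 TPM per cell was -60.5 at Sox2-GFP P6 and between -1686.5 and -1653.5 in the other pools. The difference in the mitochondrial share of TPM was -4.593 percentage points at Gfi1-GFP P6 and 0.463, 0.328 and 1.07 points in the other pools.

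GFP-negative cells labelled Merkel cell were outside the comparison. There were 4 of them, and all 4 had Krt5 and Krt14 above 100 TPM while 0 had Atoh1 and Krt8 above 20 TPM, so their transcripts went against the label.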

How the results depend on the processing

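The genes called numbered 1337 (963 lower), and no called gene was called with the opposite sign under any of 17 alternatives. Pairing by pool moved the counts: with no replicate block, 753 were called (519 lower). Leaving out each pool in turn gave 53 to 2150 called and 50 to 1741 lower, the lowest without Gfi1-GFP P6 and the highest without Sox2-GFP P6. The log2 of the mean TPM gave 627 (343 lower), pools weighted by cells 2302 (1826 lower) and differences within title sets 885 (579 lower). A filter at a mean of 3 left 3129 genes and 600 calls (383 lower), fewer genes having been tested. Without a filter, limma called 0 of 25619 genes in either direction, with 3563 at an unadjusted p under 0.05. Lower genes numbered 596 with a pseudocount of 10 and 550 with each pool centred. Totals stayed within 1.5 times under the other alternatives, but the split moved: higher genes were 27.97% of the calls, 24.57% of 981 with Gfi1-GFP P0 as a further pool (740 lower) and 47.95% of 1589 with GFP-negative keratinocytes at P0, chosen after the data were seen (762 higher, 827 lower). Where not stated, the cause was not tested. Of the 24 genes with the largest differences, all were called under each alternative except without a filter (0), on the log2 of the mean TPM (13), without Gfi1-GFP P6 (14) and after rescaling, which removes Ccer2 (23). Tfap2a, not called, turned from 0.12 to -0.193 with a pseudocount of 0.1 and ran from -0.0498 to 0.365 when each pool was left out. The mitochondrial difference ran from -1.27 to 0.619 points when each pool was left out. The protein-coding difference of 1.60 points turned to -2.22 (transcripts above 1 TPM) and -3.62 (without mitochondrial genes, Ccer2, AY036118 and CT010467.1), and ran from -0.343 to 3.07 when each pool was left out. The retained intron difference from GFP-positive keratinocytes kept its sign on the same scalings and when each pool was left out. Against GFP-negative keratinocytes it turned at Sox2-GFP P0, where these held 4.25% of TPM and MCs 3.48%. Keratinocytes numbered 6 to 18 per pool and Sox2-GFP P6 held 7 MCs, which limits the precision of those means, and the deposited values do not give the reads behind each cell.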
